A study of Mus musculus with 3 samples.

Results

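The Hox genes of the mouse sit in 4 clusters, and all 39 protein-coding genes whose symbol is Hoxa, Hoxb, Hoxc or Hoxd plus a number were taken, of 21646 protein-coding genes on the autosomes and X. DNase-seq, which finds chromatin open to cutting by DNase I, had been run on Müller cells, the radial glia that span the retina. They were primary cells of postnatal B6NCrl mice aged 12 days, with no genotype change or treatment named. The series is a single group of 3 biological replicates of pooled male and female animals. All carry the same donor label and each has its own biosample label, so the spread between them may be partly technical. The labels give no sort, and the DNase protocol they cite is written for cultured cells. Nothing beyond the markers described below speaks to the purity of the preparations.

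Hox proteins are homeodomain transcription factors that give cells along the head-to-tail axis their positional identity. The genes of a cluster lie in the order in which they are switched on from front to back, with paralog group 1 at the anterior end and group 13 at the posterior end, and Polycomb and Trithorax complexes are known to hold them silent or active. The retina arises from the forebrain, which lies in front of the territory in which Hox genes are normally expressed.

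A peak here is a stretch of 150 bp called accessible in a single library, with a deposited score that ranged from 1 to 150. What the score counts is not stated, so scores are given per replicate and were not tested between replicates. A promoter is the 1 kb on either side of any start site of a protein-coding transcript, and a promoter is called open where a region of overlapping peaks from all 3 replicates touches it. Openness describes DNase I cutting and not transcription, and the absence of a called peak does not show closed chromatin. Read depth is unknown. Since the samples are bulk, a site open in fewer cells and a site less open in each cell cannot be told apart.

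The replicates were not alike. Replicates 1, 2 and 3 had 300269, 281185 and 184544 peaks. All 10 Müller glia markers had a promoter peak in every replicate and none of the 6 rod markers had one in any. Markers of fibroblasts and mesenchyme (8 of 8) and of astrocytes (5 of 5) had peaks in every replicate, and those of endothelium had 4, 4 and 3 of 5. Of all protein-coding genes, 67.7% had a promoter peak in every replicate, 25.5% had none and 3.02% had one in replicates 1 and 2 only. A peak at a marker therefore does not by itself show that its cell type was present. All 10 markers of macrophages and microglia had a promoter peak in replicates 1 and 2 and none in replicate 3, with summed scores of 789, 763 and 0, so replicate 3 stands apart and Hox results are also given without it.

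Most Hox promoters had no peak at a shared place. Only 7 of the 39 (17.9%) were open in all 3 replicates, against 67.1% of all protein-coding genes, and these included Hoxa4, Hoxa7, Hoxa10, Hoxb5, Hoxc10 and Hoxc13. In replicate 1, 16 Hox promoters (41%) had a peak, against 72.7% of all genes. Replicate 2 had 15 (38.5%), against 71.8%, and replicate 3 had 11 (28.2%), against 69.7%. The share was 35.9% ± 6.78 for Hox genes and 71.4% ± 1.53 for all genes (SD, n = 3), and the highest Hox share lay below the lowest share of all genes. A promoter peak in at least 1 replicate was found for 19 Hox genes (48.7%), against 74.5% of all genes. The other 20 had none in any replicate. Without replicate 3, 12 Hox promoters (30.8%) had overlapping peaks of replicates 1 and 2 in the window, against 70.5% of all genes. Hoxd13 adds to these (13, 33.3%, against 70.6%) where only the merged region has to touch the window, since its replicate 1 peak ends just outside.

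The sequences under the open promoters of Hoxa4 and Hoxb5 are shown because these sites lie upstream of the start and outside any untranslated region. They come from the RefSeq GRCm38.p6 assembly (mm10), run 5′ to 3′ on the strand of the gene, and hold no match to the CTCF core described further on, so nothing is in capitals. The Hoxa4 site holds 27 CpG in 170 bp and the Hoxb5 site 12 in 150 bp.
Hoxa4 site, chr6:52191876-52192045, minus strand: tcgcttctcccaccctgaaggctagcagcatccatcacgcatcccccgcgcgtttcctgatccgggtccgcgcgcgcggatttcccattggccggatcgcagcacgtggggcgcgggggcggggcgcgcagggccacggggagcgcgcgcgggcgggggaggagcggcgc
Hoxb5 site, chr11:96303176-96303325, plus strand: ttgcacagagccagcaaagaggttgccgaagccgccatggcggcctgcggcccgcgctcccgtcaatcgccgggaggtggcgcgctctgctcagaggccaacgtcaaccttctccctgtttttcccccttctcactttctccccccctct

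Among the central genes, Hoxa4 scored 73, 52 and 63 at a site 208 bp upstream of its start. Hoxa7 scored 87, 69 and 60 at chr6:52221716-52221865, centred 63 bp into its untranslated first exon. That exon begins at the most upstream of 4 Hoxa7 starts, and the others had no shared site within 1 kb. Hoxb5, centred 261 bp upstream, scored 56, 41 and 51. Genes of this part of the clusters pattern the neck and the trunk.

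Of the posterior genes, Hoxa10, which patterns the lumbar region and the uterus, scored 55, 42 and 44 at chr6:52240456-52240645 in its untranslated region. The site lies near the more upstream of 2 Hoxa10 starts, and the other start had no shared site within 1 kb. Hoxc10, active in the lumbar spinal cord, scored 63, 44 and 32 at 155 bp upstream. Hoxc13, needed for hair and nails, had 2 shared sites with highest scores of 63, 60 and 48. The upstream site at chr15:102920796-102920965 scored 45, 36 and 48, and the intronic site at chr15:102922016-102922185 scored 63, 60 and 36, so the stronger site differed between replicates.

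Hoxc5 had a promoter peak in every replicate, scoring 51, 38 and 32, but not at a shared place. A region centred 94 bp upstream of its start had peaks in replicates 1 and 2 (51 and 38), and a region in its coding exon had peaks in replicates 1 and 3 (32 and 32).

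A further 4 genes had a peak in replicates 1 and 2 and none in replicate 3. Hoxa3 scored 34 and 33 in those replicates, and Hoxa5, which acts in the lung and the cervical skeleton, 32 and 27. Hoxb4, known for expanding blood stem cells, scored 35 and 31, and Hoxb9 scored 43 and 34. These 4 are 10.3% of the Hox genes, against 3.02% of all genes with the same pattern. Their scores in replicate 1 were all below the lowest score of an open Hox promoter in that replicate, 55 at Hoxa10. The macrophage and microglia markers show the same pattern, 10 of 10, and their part in the Hox difference was not tested.

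The other combinations were as follows. Hoxd1 had peaks in replicates 2 and 3 (32 and 35), as did Hoxd13, the gene of the digits (29 and 40). Hoxd3 had peaks in replicates 1 and 3, scoring 43 in each. A peak in replicate 1 alone was found at Hoxb13, a gene of the prostate and tail (28), at Hoxd4 (31) and at Hoxd8 (39). Hoxc4 had a single peak, in replicate 2 (21). No Hox promoter had a peak in replicate 3 alone.

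The 20 genes with no promoter peak were Hoxa2, Hoxa6, Hoxa9, Hoxa11, Hoxa13, Hoxb1, Hoxb2, Hoxb3, Hoxb6, Hoxb7, Hoxb8, Hoxc6, Hoxc8, Hoxc9, Hoxc11, Hoxc12, Hoxd9, Hoxd10, Hoxd11 and Hoxd12. Paralog groups 2, 6, 11 and 12 had none in any member, whereas every member of groups 4 and 5 had a peak in at least 1 replicate. From the 32 Hox genes that were not open, the nearest site shared by all replicates lay a median of 6.5 kb away, from 1.27 kb (Hoxa3) to 46.9 kb (Hoxd1). Over the 7122 protein-coding genes not open, the median was 13.4 kb.

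Hox promoter peaks scored low beside other promoters. The median of the highest promoter score was 47, 38 and 44 for Hox genes with a peak in replicates 1, 2 and 3, against 123, 115 and 113 for all genes with a peak. Not 1 Hox gene in any replicate exceeded the median of all genes. Among open promoters only, the medians were 63, 52 and 51 for Hox genes and 126, 118 and 115 for all genes. The median over all peaks of a replicate was 53, 44 and 42, so the median open Hox promoter lay above it in every replicate. The measures are unlike, since open promoters need a region shared by all 3 replicates and the highest score of a gene was taken. The members were known to be rarely open when they were chosen, so these values are a description without a test.

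By cluster, 4 of 11 Hoxa, 1 of 10 Hoxb, 2 of 9 Hoxc and 0 of 9 Hoxd promoters were open. The number with a peak in replicates 1, 2 and 3 was 6, 6 and 4 for Hoxa, 4, 3 and 1 for Hoxb, 3, 4 and 3 for Hoxc and 3, 2 and 3 for Hoxd. Hoxd therefore had promoter peaks in every library, in 5 genes in all, without any shared place. By position, 1 of 8 anterior genes (groups 1 to 3), 3 of 15 central genes (4 to 8) and 3 of 16 posterior genes (9 to 13) were open. No order from one end of the clusters to the other is visible in these counts. Without replicate 3 the counts were 6 for Hoxa, 3 for Hoxb, 3 for Hoxc and 0 for Hoxd, or 1 with the merged region at Hoxd13.

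CpG-rich promoters are open in most tissues, so the sequence of the Hox promoters was described next. The ratio of observed to expected CpG in the 2 kb round the most upstream start had a median of 0.591 for Hox genes and 0.481 for all genes, which is near the 0.6 of all open genes. Taking a ratio of at least 0.6 and a GC content of at least 50% as island-like, 19 Hox promoters qualified. Only 3 of them were open (Hoxa4, Hoxb5 and Hoxc13), against 97.2% of all genes with such a promoter. Hoxa5 had the highest ratio of the family, 0.886, and had peaks in 2 replicates. Of the 20 Hox genes with no peak, 9 were island-like (45%). Of the 12 Hox genes with peaks but no shared site, 7 were (58.3%). Of all genes 30.3% were. Among all genes without a shared site, whether or not they had peaks, the share was 2.61%.

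The 150 bp just upstream of Hoxa13, the gene of the distal limb, are shown because it has the highest ratio, 0.859, among Hox genes with no promoter peak. Each CpG is in capitals; there are 25, with a GC content of 82.7%.
Hoxa13 upstream, chr6:52260881-52261030, minus strand, RefSeq GRCm38.p6: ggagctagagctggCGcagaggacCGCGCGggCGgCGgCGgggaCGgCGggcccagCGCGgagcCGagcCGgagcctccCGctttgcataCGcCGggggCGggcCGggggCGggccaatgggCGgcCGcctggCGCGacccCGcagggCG

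**Figure D1:**
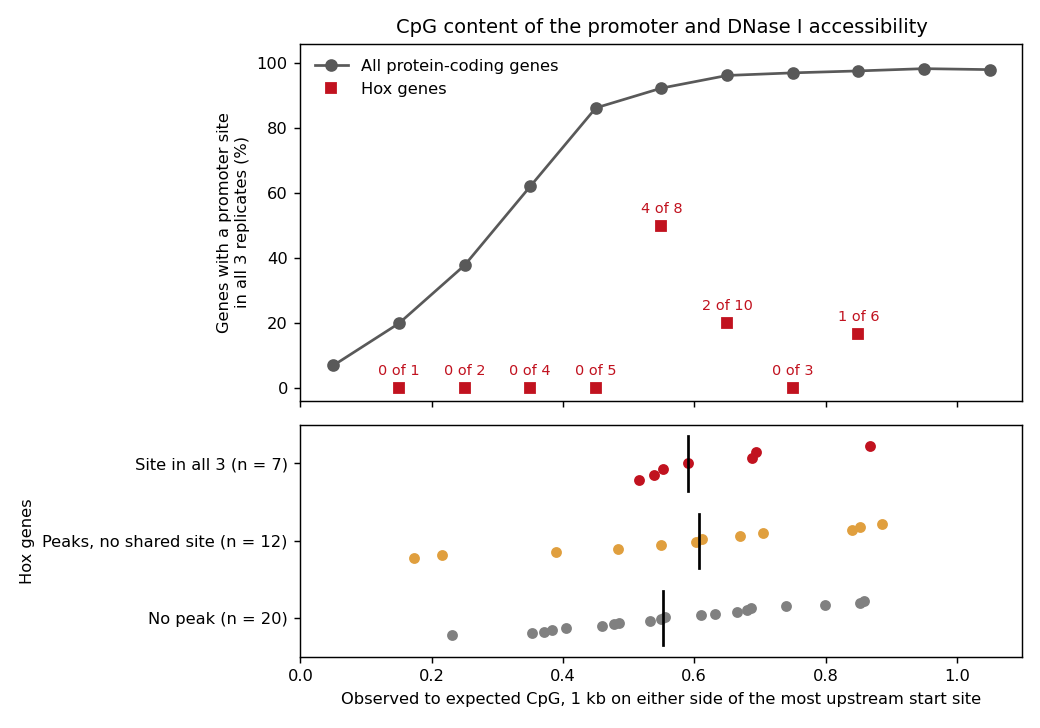
Top: percentage of genes with a promoter site in all 3 replicates, in steps of the CpG ratio, for all protein-coding genes (grey line, steps of at least 20 genes) and Hox genes (red squares with counts). Bottom: CpG ratio of each Hox gene (points) and its median (bar) by promoter state. Between 0.6 and 0.7 the share is 96.3% of all genes and 2 of 10 Hox genes, and the 3 groups of Hox genes overlap, with medians of 0.591, 0.608 and 0.553.

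The spans, from the first start to the last end of a cluster's Hox genes, were not empty of peaks. Hoxa (chr6:52155590-52260880, 105 kb) had 10.8 ± 4.39 peaks per 100 kb (SD, n = 3), and Hoxb (chr11:96194316-96368256, 174 kb) had 9.58 ± 1.66. Hoxc (chr15:102921103-103036852, 116 kb) had 9.22 ± 2.64 and Hoxd (chr2:74668310-74765142, 96.8 kb) had 9.29 ± 1.03. Together the spans held 9.69 ± 2.05 peaks per 100 kb, the flanking 250 kb on either side 10.1 ± 1.96 and the genome 9.69 ± 2.35. These pooled means differ by less than the spread between replicates. All come from the same libraries, so they are also compared by replicate. In each replicate the spans also lay close to the genome, at 11.6 against 11.4, 9.96 against 10.7 and 7.52 against 7. Without replicate 3 the means were 10.8 in the spans and 11 in the genome. The pooled flanks join unlike values. In every replicate the Hoxc span lay below both its flanks (16.3 ± 2.31 posterior and 17.3 ± 2.66 anterior). The Hoxd span lay above both of its own (6.13 ± 0.462 and 5.87 ± 1.51). The posterior and anterior flanks had 9.47 and 7.87 at Hoxa, and 9.87 and 8.13 at Hoxb.

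The larger shortfall lay in the promoters. Inside the Hox promoter windows there were 14.6 ± 2.92 peaks per 100 kb, against 55.3 ± 5.53 inside all promoter windows of the genome (SD, n = 3). The order inside windows held in every replicate: the Hox windows had 17.5, 14.6 and 11.7 peaks per 100 kb and all windows 59.6, 57.2 and 49. Outside the windows the spans had 8.22 ± 1.6 and the genome 8.55 ± 2.28. By replicate the spans had 9.51 against 10.2, 8.74 against 9.51 and 6.42 against 5.95, so the order differed between replicates. Sites shared by all replicates outside the windows numbered 3.85 per 100 kb in the spans, against 4.71 in the genome.

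**Figure D2:**
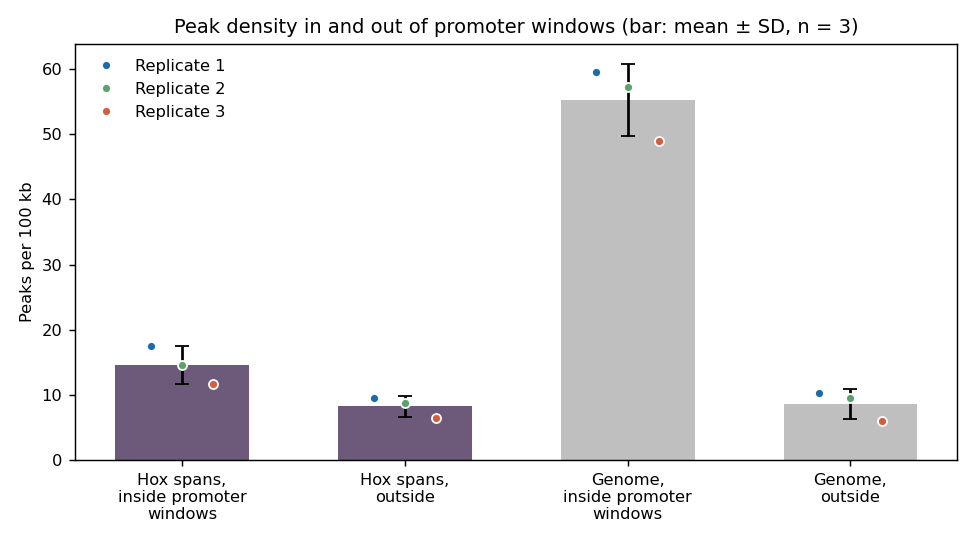
Peaks per 100 kb inside and outside promoter windows, for the Hox spans (purple) and the genome (grey). Bars are means with SD over 3 replicates and points are replicates. The 3 Hox points inside windows, 17.5, 14.6 and 11.7, lie below all 3 genome points, the lowest of which is 49.

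Sites shared by all 3 replicates numbered 6 in Hoxa, 10 in Hoxb, 5 in Hoxc and 2 in Hoxd. The 23 sites give 4.68 per 100 kb, against 6.1 in the flanks and 5.52 in the genome. Hoxd had 2.07 per 100 kb against 3.2 and 4 in its flanks. With a replicate left out, a shared site needs only the remaining replicates, so these values can hardly fall. Without replicates 1, 2 and 3 in turn Hoxd had 5.16, 3.1 and 4.13 per 100 kb. It stayed the lowest of the clusters without replicate 2 and without replicate 3. Without replicate 1 it was above the 4.32 of Hoxc. Hoxa went from 5.7 to 11.4 without replicate 3, and Hoxc from 4.32 to 6.91 without replicate 2 and to 7.78 without replicate 3. The Hoxc span had 4.32 per 100 kb between flanks with 10.4 and 11.6. Of 69 regions with a peak in any replicate, 33.3% were shared by all, against 41.3% in the genome, and 12.5% of the 16 regions of Hoxd were. The widest stretches without a shared site were 32.9 kb in Hoxa, 40.7 kb in Hoxb, 37.4 kb in Hoxc and 49.1 kb in Hoxd, the last running from an intron of Hoxd3 to the end of Hoxd1.

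Hotspots, the wider regions deposited for each library with a −log10 q, had lower mean widths in the clusters than over the genome. They covered 1.77% to 3.59% of a span in any replicate, and 3.95%, 3.45% and 2.68% of the genome in replicates 1, 2 and 3. Mean widths in the spans were 190 to 303 bp, 200 to 246 bp and 232 to 435 bp in replicates 1, 2 and 3. Over the genome they were 387, 350 and 438 bp, so Hoxa in replicate 3 (435 bp) was close to it. The widest hotspot of the spans was 1107 bp, at Hoxb2 in replicate 3. It is not set against the widest of the genome, which is drawn from far more hotspots. Counting hotspots in place of peaks left 7 open Hox promoters (17.9%), against 68.2% of all genes.

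Promoters held 8 of the 23 shared sites (34.8%), against 17.2% of all shared sites of the genome, in spans where start sites are dense. Per 100 kb of promoter window there were 7.8 shared sites in the spans and 37.9 in the genome. The higher percentage therefore does not mean denser promoter sites. The other 15 sites lay elsewhere. Of those 15, 6 were in introns of Hox transcripts, 6 between genes, 1 in a noncoding gene, 1 in the untranslated end of Hoxb8 and 1 in a coding exon of Hoxb4. Their median scores were 71, 57 and 49, beside 76, 62 and 43 for all sites outside promoters. They scored below the genome's medians in replicates 1 and 2 and above in replicate 3.

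The 5 with the highest minimum over the replicates are described in turn. The strongest lay at chr15:102999276-102999445, in introns of annotated Hoxc5 and Hoxc6 transcripts, and scored 95, 77 and 83. At chr2:74715876-74716065, in introns of Hoxd3 and Hoxd4 transcripts and an exon of the antisense RNA Hoxd3os1, the scores were 93, 76 and 75. A site at chr15:102987516-102987685, 3006 bp upstream of Hoxc8, scored 94, 87 and 64. In Hoxb, chr11:96311636-96311805 lay 6546 bp upstream of Hoxb4, a gene with no shared promoter site, and scored 89, 64 and 57. The site at chr11:96278896-96279045, 2934 bp upstream of Hoxb8, scored 95, 79 and 55. All 5 exceeded the Hoxb5 and Hoxa10 promoters in every replicate, but not every open Hox promoter. The site upstream of Hoxb4 scored below the Hoxa7 promoter in replicates 2 and 3 and below that of Hoxa4 in replicate 3. The site upstream of Hoxb8 scored below both promoters in replicate 3.

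The first 3 of these are shown because they are the strongest shared sites of the clusters outside promoters, as RefSeq GRCm38.p6 sequence on the plus strand, which is that of the genes. Capitals mark a match to the CTCF core.
Hoxc5 and Hoxc6 intron, chr15:102999276-102999445: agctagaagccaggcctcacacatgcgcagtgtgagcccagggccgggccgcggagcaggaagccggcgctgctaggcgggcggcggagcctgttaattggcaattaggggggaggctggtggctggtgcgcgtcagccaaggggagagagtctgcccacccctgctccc
Hoxd3 and Hoxd4 intron, chr2:74715876-74716065: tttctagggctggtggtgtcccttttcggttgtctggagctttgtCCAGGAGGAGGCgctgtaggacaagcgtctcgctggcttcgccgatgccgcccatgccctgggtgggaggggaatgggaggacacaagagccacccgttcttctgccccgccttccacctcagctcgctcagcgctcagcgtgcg
Upstream of Hoxc8, chr15:102987516-102987685: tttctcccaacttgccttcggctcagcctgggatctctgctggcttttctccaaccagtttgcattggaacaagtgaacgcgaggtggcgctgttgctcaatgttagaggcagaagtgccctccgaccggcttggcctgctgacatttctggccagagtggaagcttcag

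Several strong regions were found in replicates 1 and 2 and not in 3, which is the pattern of the macrophage and microglia markers (summed scores 789, 763 and 0). The strongest, upstream of Hoxa4, scored 84 and 77. Regions between Hoxd9 and Hoxd8 (69 and 53), in an intron of Hoxd11 (69 and 51) and near Hoxa13 (68 and 50) followed. Together 15 of the 69 regions (21.7%) had this pattern, which is no more than the 25.4% of all regions of the genome, and 6 of them lay in Hoxa. The part of those cells in it was not tested.

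CTCF, a zinc finger protein that sets borders between chromatin domains, is known to bind between Hox genes. Its core was searched as CCANNAGNNGGC on both strands in the 150 bp round each centre. It was found in 4 of the 23 shared sites (17.4%), against 5.72% of all 145262 shared sites of the genome. It was in 0 of the 46 cluster regions seen in fewer replicates, for which no share over the genome is given. A match is a description of letters and does not show binding. With the third letter free (CCNNNAGNNGGC), a form added after the data were seen, 6 of 23 (26.1%) matched, against 8.83%. The sites gained were the Hoxb5 promoter, printed above without capitals, and the site upstream of Hoxb8. This looser form was in 1 of the 46 regions seen in fewer replicates (2.17%).

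The 4 matches are aligned here with 9 bases on either side, from RefSeq GRCm38.p6, each on the strand of its match, with the core in capitals. Those at Hoxa7 and Hoxd12 share the same core letters.
Hoxa7 promoter, chr6:52221800-52221829, minus strand: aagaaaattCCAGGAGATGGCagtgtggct
Hoxa10 promoter, chr6:52240532-52240561, minus strand: tcgcagccgCCACGAGATGGCgcactcccg
Upstream of Hoxd12, chr2:74673169-74673198, minus strand: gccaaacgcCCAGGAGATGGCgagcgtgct
Hoxd3 and Hoxd4 intron, chr2:74715912-74715941, plus strand: gagctttgtCCAGGAGGAGGCgctgtagga

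Both shared sites of Hoxd hold a core, on opposite strands, and neither lies in a promoter. The site 1852 bp upstream of Hoxd12, near the posterior end, scored 67, 41 and 43. In Hoxa the match lies on the strand of the genes at both Hoxa7 and Hoxa10. Sites with a match had median scores of 77, 55.5 and 52 and those without 71, 57 and 51, so the order of the medians differed between replicates.

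Patterns of other regulators are given beside their share of all shared sites. The PBX-HOX form TGATNNAT, read by Hox proteins with their PBX partners, was in 1 of 23 sites (4.35%, at Hoxa4), against 6.42% of all sites. The MEIS form TGACAG was in 0 of 23 against 12.2%. Retinoic acid receptor repeats, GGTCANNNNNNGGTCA and GGTCANNNGGTCA, were in 0 of 23 against 0.0633% and 0.042%. They are so rare over all sites that 0 of 23 says nothing about the clusters. In the 46 cluster regions seen in fewer replicates, the PBX-HOX form was in 3 (6.52%) and the MEIS form in 4 (8.7%). In 300 bp windows the PBX-HOX form was in 2 of the 23 shared sites (8.7%), against 12.3% of all sites. The MEIS form was in 4 (17.4%), against 22.5%. No match says only that these letters are not in the windows.

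The partners and regulators of Hox genes had open promoters for the most part, which is read against 67.1% of all genes. Of 9 Hox cofactors, 8 were open (88.9%), led by Pknox1 (146, 148 and 141). The exception, Meis3, had peaks of 82, 74 and 85 at different places. All 11 genes of PRC2, the Polycomb complex that methylates histone H3 at lysine 27, were open, with Jarid2 at 143, 144 and 144 and Rbbp4 at 145, 147 and 142. So were all 19 genes of PRC1, with Cbx8 at 139, 139 and 141 and Pcgf5 at 138, 131 and 131. The scores printed for Pknox1 and these Polycomb genes were above every Hox promoter score.

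On the activating side, 11 of 12 Trithorax and demethylase genes were open, with Kmt2a at 144, 140 and 141 and Kmt2b at 142, 143 and 139. The demethylase Kdm6b had peaks in replicates 1 and 2 only (66 and 68). Of 9 upstream regulators 7 were open (77.8%, near the share of all genes), including the retinoic acid receptors Rarg (134, 137 and 139) and Rarb (140, 128 and 133). Of the Cdx genes, which activate posterior Hox genes in the embryo, Cdx1 and Cdx2 had no promoter peak and Cdx4 was open with scores of 27, 16 and 26. Among the 5 ParaHox and Evx genes, homeobox relatives of the clusters, Gsx1 was open (110, 99 and 102). Pdx1 had a single peak, in replicate 3 (22), and Gsx2, Evx1 and Evx2 had none.

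**Figure D3:**
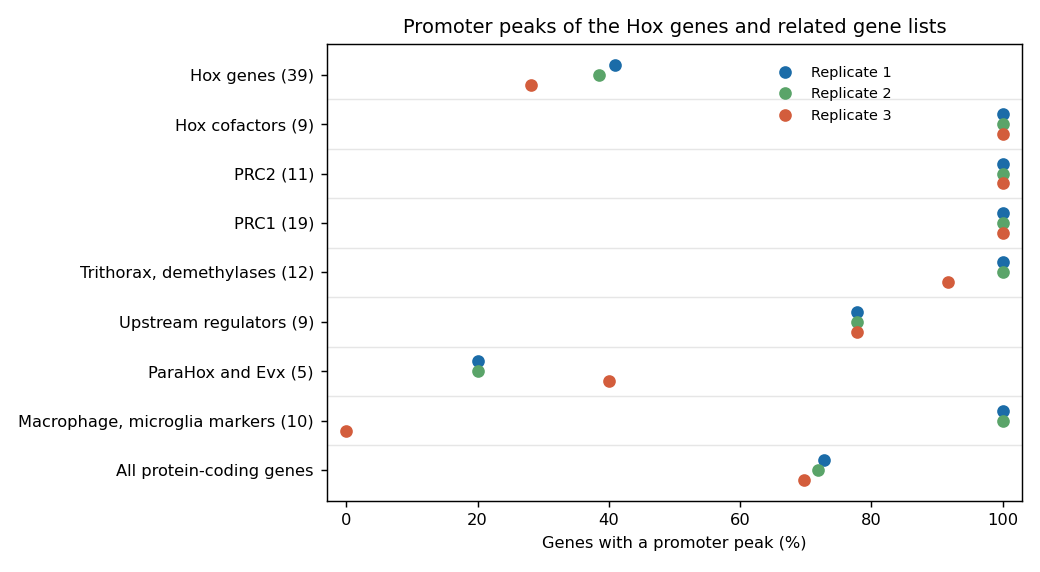
Percentage of genes with a promoter peak in each replicate, for the Hox genes and related lists (number of genes in brackets) and for all protein-coding genes. The Hox points, 41, 38.5 and 28.2, lie left of all genes, whereas cofactors and Polycomb lists lie at 100 in every replicate and the macrophage and microglia markers at 0 in replicate 3.

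Of the 3 nearest protein-coding genes on either side of each cluster, 20 of 24 were open, beside 67.1% of all genes. The 24 genes lay from 8.75 kb (Evx2) to 910 kb (Nfe2l2) from their span. On the Hoxa side Skap2 (141, 137 and 134), Snx10 (126, 115 and 85), Cbx3 (146, 144 and 142), Hibadh (138, 136 and 128) and Tax1bp1 (128, 129 and 118) were open. Next to Hoxb, Atp5g1 scored 150, 148 and 134, Snx11 145, 147 and 137, Cbx1 137, 135 and 117, and Ttll6 49, 47 and 51. All 6 around Hoxc were open, namely Calcoco1, Atp5g2, Atf7, Smug1, Cbx5 and Hnrnpa1, with scores from 104 to 145. Cbx5 and Hnrnpa1 had the same scores (145, 143 and 124), so the same peaks may be counted for both. Around Hoxd, Lnpk scored 126, 113 and 120, Mtx2 102, 95 and 86, and Atp5g3, Hnrnpa3 and Nfe2l2 lay between 115 and 146. The 4 not open were Evx1, 52.6 kb from Hoxa, Evx2, 8.75 kb from Hoxd, Calcoco2, and Skap1 with 43 and 34 in replicates 1 and 2.

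Noncoding genes between the Hox genes followed the sites already described. Of 18 long noncoding RNA genes in the spans, 5 had a peak within 1 kb of a start in all replicates and 10 had none in any. The peaks were not always at a shared place, and no share over all noncoding genes is given for these counts. Hoxd3os1 shared the intronic site of Hoxd3 (93, 76 and 75). Haglr, antisense at the anterior end of Hoxd, scored 30, 35 and 45 without a shared place, and Hotair, in Hoxc, had no peak. Of 7 microRNA genes, Mir615 had peaks in every replicate (42, 35 and 32), but not at a shared place. Mir10a and Mir10b had a peak in replicate 1 alone (31 in each), and Mir196b, Mir196a-1 and Mir196a-2 had none. Read-through transcripts join Hoxc5 to the Hoxc10 region and Hoxd4 to Hoxd3 in the annotation, so the assignment of a peak to 1 gene of these pairs is uncertain.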

How the data were processed

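DNase-seq of 3 biological replicates was analysed from the lists the authors deposited for each library alone, on mm10. Per the file headers and the deposited descriptions, peaks and hotspots come from that library's filtered alignments, without pooling. Which aligner, caller and filters were used is not given in the sources used here. Each peak carries a deposited score (whole numbers, 1 to 150, meaning not stated), and each hotspot a deposited −log10 q from 1.30 to a cap of 100. No counts come with them, so depth is unknown and no interval for it can be given.

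Repeated peak positions were removed (21, 20 and 23). Peaks overlapping by at least 1 bp were merged, and start sites were those of protein-coding transcripts in GENCODE M21, 1 symbol per gene. Sequence came from RefSeq GRCm38.p6, whose chromosome lengths match mm10. Python 3.11.15, pandas 2.3.3, numpy 2.4.6 and pysam 0.24.0 were used, and merging, promoter calls and motif search were tested on simulated data. No test was run: there is a single group, and members, lists and alternatives were chosen with earlier results of these data known. Counts cover all 39 Hox genes and every listed gene, and a few items are not reported here by name. Related lists are represented by their members that were not open and the 2 whose lowest score was highest, cluster sites by the 5 with the highest lowest score, and neighbours by 3 on either side. Cluster regions absent from replicate 3 and noncoding genes named beyond this were chosen after their values were seen.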

Additional observations from a re-analysis of the deposited data

How the results depend on the processing

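No paired analysis was possible because there is a single group. The number of open Hox promoters was 7 (17.9%), against 67.1% of all genes. It ranged from 8 to 13 when a replicate was left out, and 13 was without replicate 3 (added were Hoxa3, Hoxa5, Hoxb4, Hoxb9, Hoxc5 and Hoxd13, the last through a replicate 1 peak just outside the window; 12 without it). Over all genes the share with a replicate left out was 67.5% to 70.6%. The Hox count was 15 (38.5%) with a 2500 bp window, against 71% of all genes. In the strongest 50% of peaks it was 3 (7.69%), against 61%. With every transcript's start, an alternative chosen after seeing the data, it was 8 (20.5%), against 68.3%. It stayed 7 with a 500 bp window, the most upstream start alone and hotspots. The same number of peaks per replicate and a 75 bp overlap also left it at 7. Over all genes these settings gave 63.7% to 68.2%. Leaving out a replicate gave 1 to 3 open promoters in Hoxb, 1 in Hoxd, 2 in the anterior, 3 to 6 in the central and 3 to 5 in the posterior groups. With the 2500 bp window these were 6, 1, 3, 7 and 5. Shared sites per span ranged from 6 to 12 in Hoxa, 5 to 9 in Hoxc and 3 to 5 in Hoxd with a replicate left out. In the strongest 50% of peaks there were 3 in Hoxb, 3 in Hoxc and 1 in Hoxd. In 300 bp windows 2 sites held the PBX-HOX form and 4 the MEIS form. The causes of these changes were not tested, beyond the larger windows and the fewer peaks by construction. Of 105 alternatives, 78 stayed within the limits of a 1.5-fold change and 27 moved. Depth limits what an absent peak can show, and n = 3 limits the precision of every spread.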
